A study of Caenorhabditis elegans with 2 samples.

Results

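The genes described here encode chromatin repressors of Caenorhabditis elegans: the heterochromatin protein 1 (HP1) homologues hpl-1 and hpl-2, the MBT-repeat gene lin-61, the zinc finger gene lin-13 and the THAP domain gene lin-15B. These 5 of 19973 nuclear protein-coding genes were picked by symbol in the Ensembl annotation. Binding of PBRM-1, the polybromo subunit of the SWI/SNF remodeller form called PBAF, was mapped by chromatin immunoprecipitation with sequencing. The samples were whole young adults, 64.5 h old, grown from bleached embryos and starved L1 larvae, and they formed 1 group of 2 biological replicates. All worms were of strain RW12226, in which the pbrm-1 gene carries TY1, EGFP and 3xFLAG tags inserted by CRISPR, and the antibody recognised GFP. The tag sits at the gene's own locus, and whole animals mix the chromatin of all tissues, so a site used in few cells cannot be told apart from one weakly used in many. The control experiment named in the labels was not used here. With 1 group there was no contrast between conditions, and the question is which of these genes PBRM-1 sits at.

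HP1 proteins bind histone H3 methylated on lysine 9, the mark of heterochromatin, through a chromodomain, and LIN-61 reads the same mark through its MBT repeats. LIN-13 is known to act together with HPL-2 and LIN-61. In the worm, hpl-2, lin-13, lin-15B and lin-61 belong to the class B synthetic multivulva (synMuv) genes, which act redundantly with class A genes to keep the growth factor gene lin-3 off outside its proper cells. When both classes are lost, ectopic vulval tissue forms. LIN-15B also keeps germline genes silent in somatic cells.

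PBRM-1 had a peak at 1 of the 5 genes, lin-13, and at none inside a gene body. A peak was assigned by its summit, the position of highest signal, and a promoter window ran from 1000 bp upstream to 200 bp downstream of any annotated transcript 5' end. In the series list, which the authors thresholded from the replicates together and which held 3243 peaks, lin-13 was the member with a summit in its window, while 9.87% of all protein-coding genes had one. In the authors' conservative list lin-13 was again the member called, against 8.99% of all genes. In the lists of single replicates, 0 of the 5 genes had a promoter summit, against 4.63% of all genes in replicate 1 and 7.63% in replicate 2. With 5 genes, a count of 1 or 0 lies near these shares and shows no difference from other genes. Gene bodies of the members held 0 summits of the series list, of replicate 1 and of replicate 2, while 5.28%, 2.02% and 3.14% of all genes had at least 1 in those lists. Peak lists do not show read depth, so a missing peak means only that none passed the threshold.

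Weaker candidate peaks lay in all 5 genes. The authors also deposited ranked lists, of which 2 are for both replicates together and 1 is for each replicate. The first for both replicates, which contains the series list, holds 89851 candidates, and the second, which contains the conservative list, holds 89171. There were 54625 for replicate 1 and 48976 for replicate 2, and nearly all candidates were below the threshold. The threshold was an irreproducible discovery rate (IDR) of 0.01, where the IDR estimates the share of peaks, at that rank or above, that would not recur. In the first ranked list of both replicates, 3 of the 5 genes had a candidate in a promoter window, against 66.0% of all genes, and in the second all 5 had one, against 65.9%. Replicate 1 gave 3 of the 5 against 52.9% of all genes, and replicate 2 gave 2 of the 5 against 49.4%. All 5 genes had a candidate in the gene body in both of these lists of the replicates together, as did 70.0% of all genes in the first and 69.6% in the second. The density of gene-body candidates in the first was between 0.899 per kb in hpl-2 and 2.44 per kb in lin-61, against a median of 1.01 per kb over all genes. Candidates of this kind are thus common throughout the annotation.

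**Figure D1:**
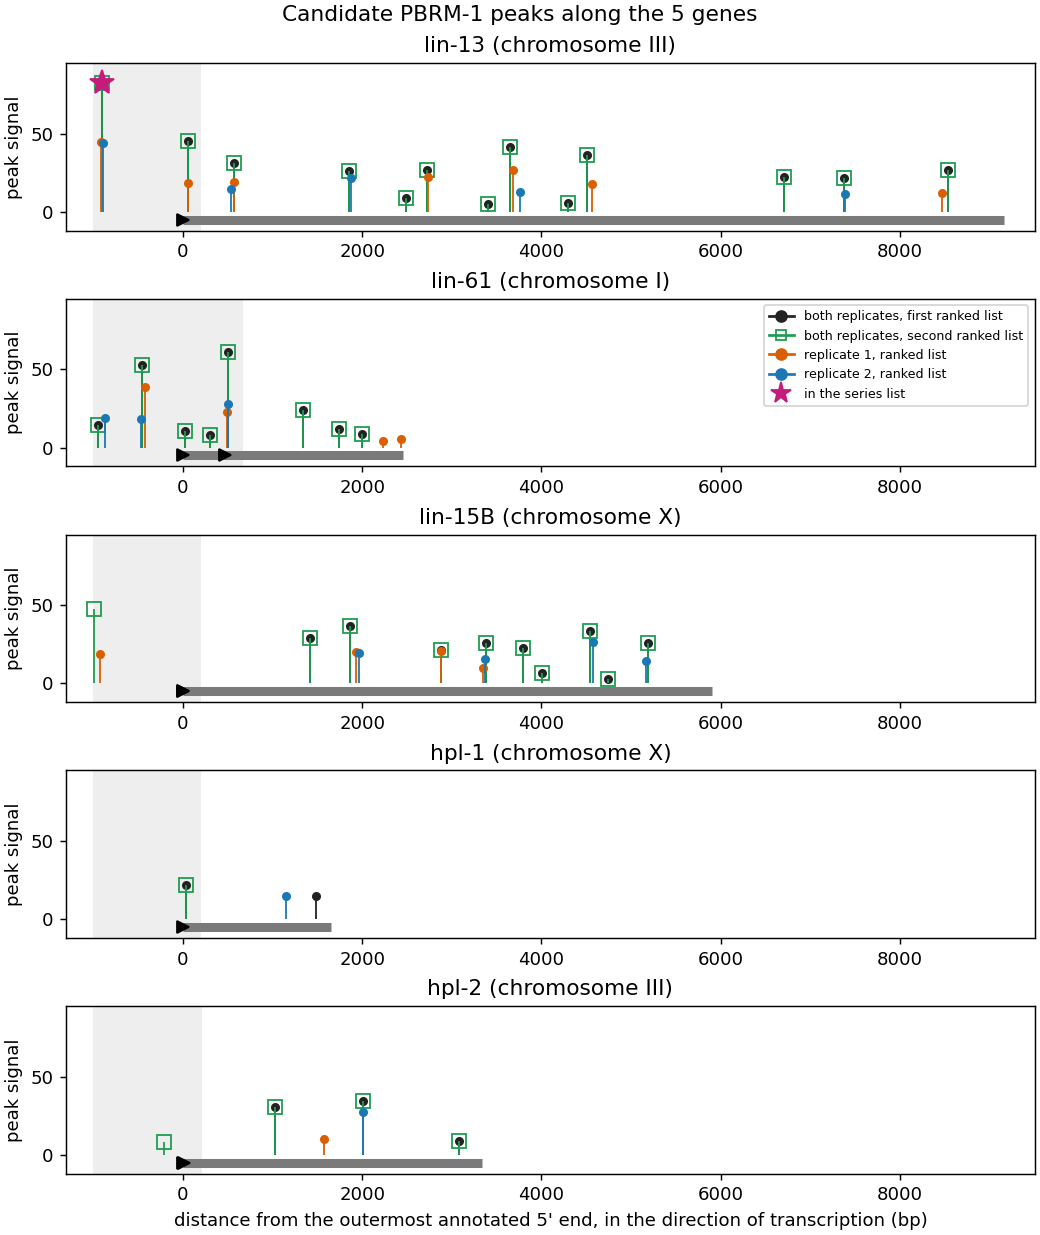
Candidate peaks along the 5 genes. Each stem is the summit of a candidate from the first (black) or second (open green squares) ranked list of both replicates, replicate 1 (orange) or replicate 2 (blue), placed by its distance in bp from the outermost annotated 5' end, with the authors' peak signal as height; grey bars are gene bodies, arrowheads are 5' ends, shading marks the promoter windows and the star is the peak in the series list. The star stands 907 bp upstream of lin-13 at a signal of 82.0, and no other stem carries one. The squares without a black point at lin-15B and hpl-2 are candidates of the second list where the first had none in the promoter window.

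**Figure D2:**
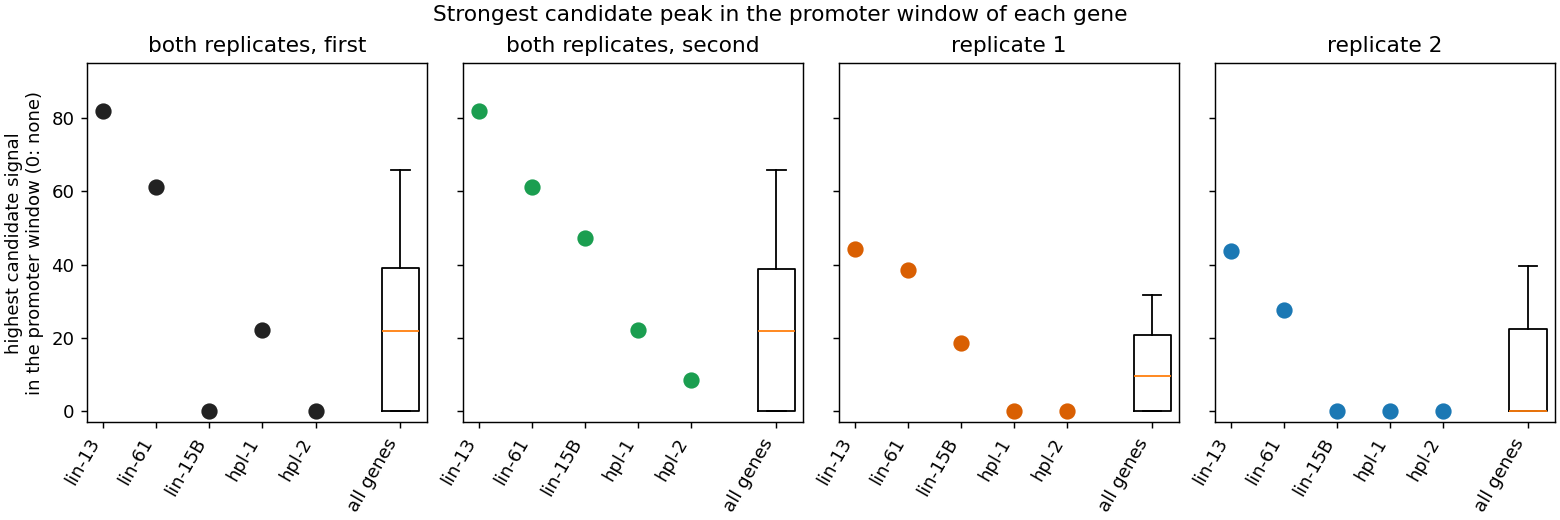
The strongest candidate in the promoter window of each gene. Points are the members' signals in the ranked list named above each panel, with 0 for a gene without a candidate; boxes span the quartiles over all 19973 protein-coding genes, the line is the median and whiskers reach the 10th and 90th percentiles. lin-13 lies above the upper whisker in all 4 panels and lin-61 lies above it in replicate 1; lin-15B is at 47.3 in the second list of both replicates and at 0 in the first.

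lin-13 (WBGene00003002) encodes a large zinc finger protein and spans III:7700338-7709491 on the minus strand of the ce11 build. Its peak at III:7710238-7710557 had a signal of 82.0 in the series list, and its summit at position 7710398 lay 907 bp upstream of the single annotated 5' end. Both replicates had a candidate at the same place, with a signal of 44.3 in replicate 1 and 43.8 in replicate 2 and summits 915 and 890 bp upstream. Neither of these candidates entered its replicate's own thresholded list. The IDR of the site was 0.00166 in the first and 0.00182 in the second ranked list of both replicates, 0.0118 in replicate 1 and 0.728 in replicate 2, so replicate 1 missed the limit narrowly and replicate 2 by far. The q values of the authors' peak caller were all below 0.05, at 0.0164 for both replicates, 0.0194 in replicate 1 and 0.0164 in replicate 2. Both samples thus had a candidate at the site, and its IDR differed between the lists.

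The lin-13 peak was of modest height among those in the series list. It ranked 1997 of 3243 by signal, and 38.4% of the peaks were weaker. Of the 1971 genes with a promoter summit, 27.4% had a best signal below that of lin-13, and the median was 106.6. Its absence from both replicates' own lists was shared by 458 of those genes (23.2%). Its distance was less usual, since 72 of the 1971 genes (3.65%) had all their promoter summits 900 bp or more from a 5' end. That cut lies just below the lin-13 distance, so the share describes the position of this gene and is not a test. The summit was 93 bp inside the far edge of the window, so a window of 500 bp upstream to 100 bp downstream left lin-13 and thus all 5 genes without a summit, against 7.57% of all genes. Among peaks at or above the median signal of 92.9, 0 of the 5 genes had one, against 6.01% of all genes.

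The gap of 2817 bp between lin-13 and its divergent neighbour C03B8.3 held a second peak of the series list. It had its summit 217 bp upstream of the 5' end of C03B8.3 and 2601 bp from that of lin-13, with a signal of 78.4, and it too was in neither replicate's list. The lin-13 summit lay 1911 bp from the 5' end of C03B8.3 and in no other gene's window. At the 5' end of lin-13 itself, 54 bp downstream, the ranked lists of both replicates had a weaker candidate with a signal of 45.1 and an IDR of 0.291 in the first list and 0.149 in the second. Replicate 1 had it at a signal of 18.7, and replicate 2 had no candidate there. The strongest signal of the lin-13 locus therefore stood away from the annotated 5' end.

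The sequence under the lin-13 summit is shown because it is the one thresholded site of these genes. It is III:7710248-7710547 from the RefSeq copy of WBcel235, 300 bases on the strand of lin-13 (minus), with capitals for matches to TTTGAA, the cell cycle homology region (CHR) string linked to the DREAM complex, on either strand.
lin-13: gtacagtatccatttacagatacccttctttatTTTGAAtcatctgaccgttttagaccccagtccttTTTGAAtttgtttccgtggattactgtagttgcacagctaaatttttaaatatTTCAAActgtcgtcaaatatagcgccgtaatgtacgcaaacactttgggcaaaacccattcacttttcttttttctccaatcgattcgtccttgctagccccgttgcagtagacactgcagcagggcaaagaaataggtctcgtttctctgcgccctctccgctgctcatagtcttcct
It held 3 matches to TTTGAA, a string found in 46.6% of the 300-base windows around all series-list summits. It held none of the E2F strings TTCCCGC (5.52% of those windows) and TTGGCGC (6.07%), of the GAGA repeat GAGAGA (33.9%), of the TATA string TATAAA (23.6%) or of the T-block TTTTTTT (38.9%), all read on both strands. Its GC content was 42.0%, against a median of 41.3% over the summits of the series list. A match is a description of the letters in this window and not a binding site.

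hpl-2 (WBGene00001996), the HP1 gene of the synMuv B class, spans III:10752195-10755530 on the minus strand and had little in its promoter window. The window held 1 candidate, 205 bp upstream with a signal of 8.42 and an IDR of 0.809, in the second ranked list of both replicates, and none in the first or in either replicate. Its strongest candidate lay in a coding exon 1999 bp downstream of the 5' end, with a signal of 34.3 for both replicates and an IDR of 0.130 in the first and 0.343 in the second list. Replicate 2 had it at a signal of 27.2, and replicate 1 had none there, its one candidate in the gene being in an intron 1560 bp downstream at a signal of 10.4. The replicates thus had no site of hpl-2 in common. The 5' end of hpl-2 lies 93 bp from the end of rnf-113, a gene on the same strand that spans III:10755624-10757640. Most of the hpl-2 promoter window, with its 1 candidate at position 10755735, therefore lies within rnf-113. Further upstream, rnf-113 in turn abuts K01G5.10 with a gap of 0 bp. The first peak upstream of this row of genes, at III:10759104-10759399 with a signal of 1142, ranked 8 of 3243 in the series list. It lay in the promoter windows of K01G5.10 and tasp-1, and its summit was 3721 bp from the 5' end of hpl-2. Of all genes, 22.9% had a series-list summit nearer to a 5' end.

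The hpl-2 candidate is shown as a contrast to lin-13, since its summit lies in a coding exon, while the rest of its window was not classed. It is III:10753372-10753590 in WBcel235 from RefSeq, 219 bases on the strand of hpl-2 (minus), with the other bases of the 300-base window left out and capitals for GAGAGA and TTTGAA.
hpl-2: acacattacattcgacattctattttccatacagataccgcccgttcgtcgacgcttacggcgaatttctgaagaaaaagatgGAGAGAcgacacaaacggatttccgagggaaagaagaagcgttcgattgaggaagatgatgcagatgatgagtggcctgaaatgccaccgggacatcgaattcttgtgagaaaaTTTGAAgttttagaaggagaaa
The full window had a GC content of 39.0% and 1 match to each of these strings, so it shared TTTGAA with the lin-13 window and differed from it in holding GAGAGA. With 200 bases it held 0 matches to TTTGAA. Both strings are common, in 46.6% (TTTGAA) and 33.9% (GAGAGA) of the 300-base windows around series-list summits.

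hpl-1 (WBGene00001995), the second HP1 gene, spans X:13245390-13247044 on the plus strand and had the fewest candidates of the 5 genes in the ranked lists of both replicates. It is also the shortest of the 5 genes, at 1.66 kb. Per kb of gene body it had 1.21 candidates in the first list and 0.604 in the second, against medians of 1.01 and 1 over all genes. One of its candidates lay in the 5' UTR, 33 bp downstream of the 5' end, with a signal of 22.1 and an IDR of 0.818 in the first and 0.809 in the second list. Another, in the first list alone, lay in the 3' UTR with a signal of 14.9. Replicate 1 had 0 candidates in the window or the gene body, and replicate 2 had 1, in an intron 1152 bp downstream of the 5' end at a signal of 14.7. The candidate at the 5' end was therefore seen in neither replicate alone. The 300 bases around it held 4 matches to the T-block TTTTTTT, counting overlapping ones, 1 to GAGAGA and 1 to the E2F string TTCCCGC, which were found in 38.9%, 33.9% and 5.52% of the windows around series-list summits. The nearest series-list peak was 15851 bp away, downstream of the gene, at X:13261081-13261400 with a signal of 104.1 and beside a transfer RNA (tRNA) gene.

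lin-15B (WBGene00023497) spans X:15726123-15732025 on the plus strand, and its end overlaps the class A gene lin-15A by 58 bp. The 2 genes are known to be transcribed together as an operon. The strongest candidate of lin-15B lay in its promoter window, 995 bp upstream, at X:15724968-15725287 with a signal of 47.3 and an IDR of 0.161. It was in the second ranked list of both replicates, and the first had none in the window. The window ends at 1000 bp, so a first-list summit slightly further upstream would not be counted. Replicate 1 had a candidate nearby, 926 bp upstream, at a signal of 18.5 and an IDR of 0.784, and replicate 2 had none in the window. Inside the gene both ranked lists of the 2 replicates together had 9 candidates, the strongest with a signal of 36.5 in a coding exon 1864 bp downstream of the 5' end. Replicate 1 had a candidate near this site, 1922 bp downstream, at a signal of 19.9, and replicate 2 had one 1964 bp downstream at a signal of 19.3. The IDR of this site was 0.167 in the first and 0.189 in the second ranked list of both replicates, 0.623 in replicate 1 and 0.703 in replicate 2, so it passed in none. The nearest series-list peak was 15901 bp from the 5' end, past lin-15A, in the promoter window of nhr-255 and within 500 bp of a tRNA gene. lin-15A had no series-list summit in its promoter window.

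The window around the upstream lin-15B candidate is shown because it is, like the lin-13 peak, a site near the far edge of the promoter window, and it did not pass. It is X:15724978-15725277 in WBcel235 from RefSeq, 300 bases on the plus strand, with capitals for TTTGAA and GAGAGA on either strand.
lin-15B: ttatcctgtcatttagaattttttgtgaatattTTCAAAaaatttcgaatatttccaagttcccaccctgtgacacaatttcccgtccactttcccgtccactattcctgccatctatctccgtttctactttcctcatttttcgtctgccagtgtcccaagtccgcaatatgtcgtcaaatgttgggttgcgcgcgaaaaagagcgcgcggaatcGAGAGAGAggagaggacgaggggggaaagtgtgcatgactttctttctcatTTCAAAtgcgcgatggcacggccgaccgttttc
It held 2 matches to TTTGAA, which the lin-13 window also held, and 2 overlapping matches to GAGAGA, which that window lacked. These strings were found in 46.6% and 33.9% of the 300-base windows around series-list summits. With 200 bases the lin-15B window held 0 matches to TTTGAA, while that of lin-13 held 2. The 300 bases held none of the other 4 strings, and their GC content was 46.0%.

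lin-61 (WBGene00003041) had the strongest candidates after lin-13. It spans I:7248827-7251282 on the minus strand and has 2 annotated 5' ends, at positions 7251282 and 7250816. One candidate lay in a coding exon, 40 bp downstream of the internal 5' end, with a signal of 61.3 for both replicates, 22.9 in replicate 1 and 27.7 in replicate 2. The other lay upstream of the gene, 460 bp from the outer 5' end, with a signal of 52.5 for both replicates, 38.5 in replicate 1 and 18.2 in replicate 2. Each replicate thus had both sites, and within its own list the upstream one was the stronger in replicate 1 and the internal one in replicate 2. The upstream site had an IDR of 0.0207 in the first ranked list of both replicates and 0.310 in the second, 0.0826 in replicate 1 and 0.557 in replicate 2. The internal site had 0.558 in the first and 0.0525 in the second, 0.769 in replicate 1 and 0.736 in replicate 2. Which site had the lower IDR thus changed between the 2 lists of both replicates, and in none of the lists did either reach the limit of 0.01. The upstream site lay in a gap of 658 bp shared with bub-1, a spindle checkpoint kinase gene on the opposite strand. It was 199 bp upstream of the bub-1 5' end, nearer than to that of lin-61. The nearest series-list peak was 28097 bp away, beside a tRNA gene.

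Ordered by the strongest candidate in the promoter window, lin-13 came first and lin-61 next in all 4 ranked lists. In the first list of both replicates the signals were 82.0 at lin-13, 61.3 at lin-61, 22.1 at hpl-1 and 0 at hpl-2 and lin-15B, against a median of 21.9 over all genes. In the second the signals of lin-13, lin-61 and hpl-1 were the same, while lin-15B had 47.3 and hpl-2 had 8.42, against a median of 21.8 over all genes. The share of genes with a weaker best candidate was 92.7% for lin-13, 88.8% for lin-61 and 50.4% for hpl-1 in the first list. In the second it was 92.7% for lin-13, 88.8% for lin-61, 82.4% for lin-15B, 50.7% for hpl-1 and 36.0% for hpl-2. In replicate 1 it was 94.7% for lin-13, 93.3% for lin-61 and 69.7% for lin-15B, and in replicate 2 it was 91.2% for lin-13 and 82.2% for lin-61. The order of hpl-1 and lin-15B changed between the lists, so these genes cannot be ranked against each other. No test between genes was possible with 2 replicates whose signals have no stated common scale.

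**Figure D3:**
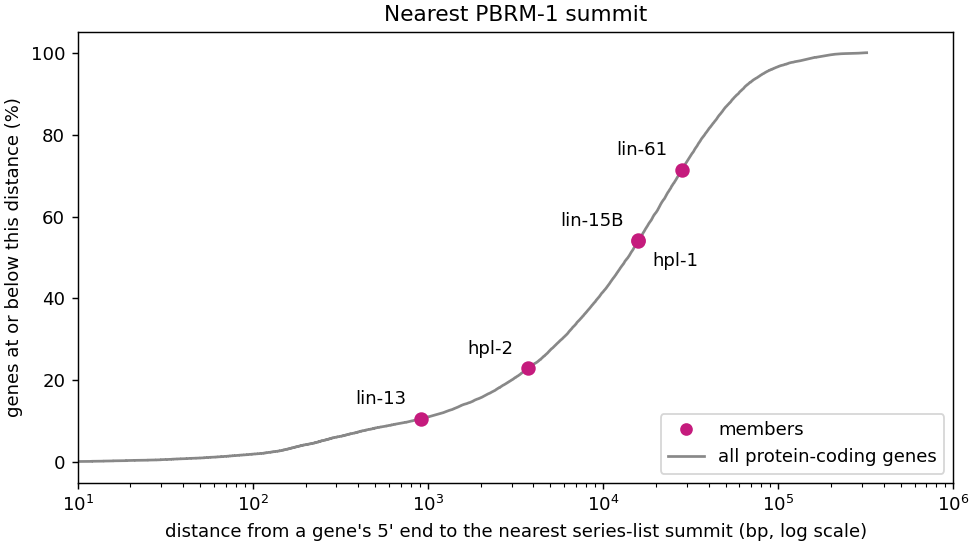
Distance from the 5' end to the nearest summit of the series list. The grey line gives, for all 19973 protein-coding genes, the share in percent at or below each distance in bp (log scale), and the points are the 5 members. lin-13 (907 bp) and hpl-2 (3721 bp) lie left of the median of 13867 bp over all genes, and hpl-1 (15851 bp), lin-15B (15901 bp) and lin-61 (28097 bp) lie right of it.

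Genes with functions related to those of these repressors, including genes they restrain, were called in some groups and not in others. In 6 lists of 53 other genes, 15 (28.3%) had a promoter summit in the series list, 11 in replicate 1 and 12 in replicate 2, against 9.87%, 4.63% and 7.63% of all genes. The lists were chosen with earlier results of these data known, so these shares cannot show that related genes are bound more often. Of 14 further synMuv B and DREAM genes, 8 were called, 6 in each replicate's own list. The strongest were lin-54 (signal 485), a DNA-binding subunit of DREAM, lin-53 (407), a histone chaperone gene, lin-9 (348), another DREAM subunit, and efl-1 (323), an E2F factor gene. lin-35, the Rb homologue, followed with 176, and lin-36, a THAP domain gene, with 101. The peaks of lin-54, lin-53, efl-1 and lin-35 also lay in a neighbour's window, which for lin-54 was that of the ribosomal protein gene rpl-12, while those of lin-9 and lin-36 lay in no other. The lin-13 summit was at 907 bp, while the summits of these 6 genes were 154 to 365 bp from a 5' end. The other 2 called genes of this list, named after their values were seen, were hda-1 and mep-1. hda-1, a histone deacetylase gene, had its summit at 979 bp, also in the window of ril-1, and was in neither replicate's list. mep-1, a zinc finger gene, had its summit at 165 bp and was called in replicate 1 and not in replicate 2.

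The list of H3 lysine 9 methylation and chromodomain genes had 1 called gene, which in a list this short lies near the 9.87% of all genes. The nuclear RNA interference and synMuv suppressor lists had higher shares, which in lists this short were not tested. Of 11 genes for H3 lysine 9 methylation and for other chromodomain proteins, 1 was called, the chromodomain gene cec-5 (202), in both replicates' lists, with a peak also in the window of nol-10. The methyltransferase genes met-2 and set-25 were not called, and neither were set-32, set-23, lin-65 and arle-14 of the same list. Of the 6 nuclear RNA interference genes, 2 (33.3%) were called in the series list and in each replicate's list. The shares over all genes were 9.87% in the series list, 4.63% in replicate 1 and 7.63% in replicate 2. The 2 genes were nrde-2 (428), with its summit at 922 bp, and the Argonaute gene hrde-1 (126). nrde-2 shares its peak with the atad-3 window, and hrde-1 shares its peak with the window of C16C10.13. Of 8 synMuv suppressor and germline chromatin genes, 4 (50.0%) were called in the series list, 2 in replicate 1 and 3 in replicate 2, against those same shares. They were mrg-1 (234), a chromodomain gene, zfp-1 (148), an AF10 homologue, isw-1 (106), a remodeller ATPase gene, and mes-2 (98.5). The mrg-1 peak also lay in the window of spcs-2. mes-2, the gene of the H3 lysine 27 methyltransferase, was called in neither replicate's list.

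Class A genes and genes of the vulval pathway that synMuv genes restrain had no called member, which in lists this short lies near the 9.87% of all genes. The 4 class A genes lin-15A, lin-8, lin-38 and lin-56 had 0 summits in the series list and in each replicate's list. Likewise 0 of 10 vulval signalling genes were called, among them lin-3, the EGF gene, and let-23, its receptor. The median of the strongest promoter candidate was 22.1 in the 5 repressor genes, 30.2 in the class A list, 28.5 in the vulval list and 66.2 in the other synMuv B and DREAM genes, against 21.9 over all genes. These medians are from the first ranked list of both replicates. They describe the lists, which were not tested against each other.

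**Figure D4:**
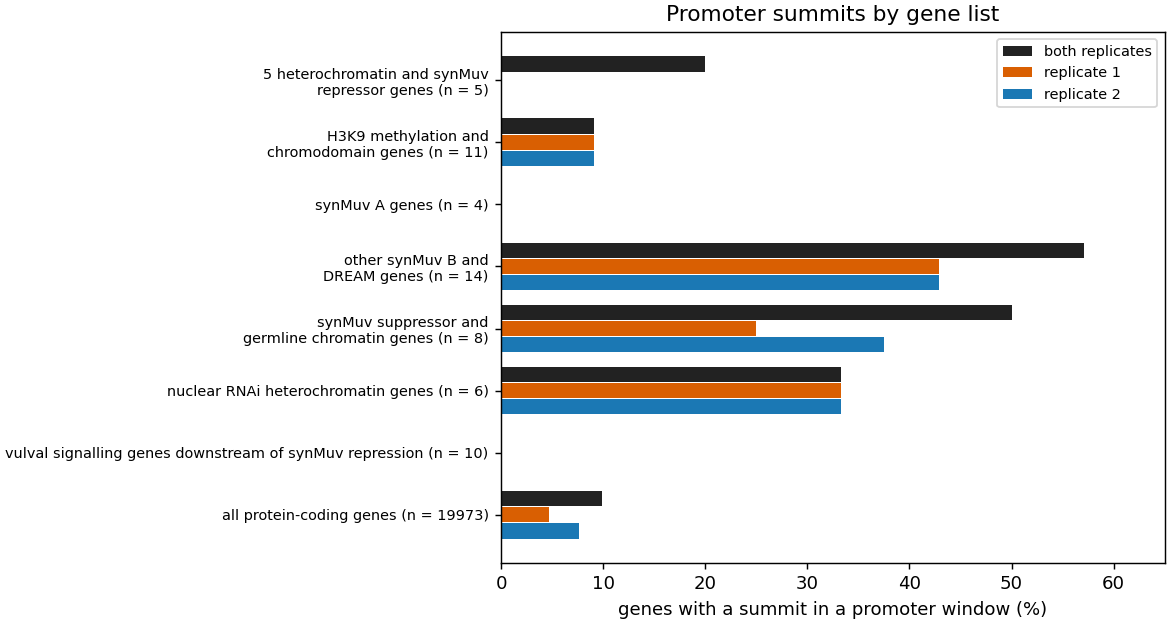
Share of genes with a summit in a promoter window, in percent, for the 5 genes, 6 lists of related genes and all protein-coding genes. Bars give the series list (black), replicate 1 (orange) and replicate 2 (blue), and n is the number of genes. The 5 genes reach 20.0% in the series list, which is 1 gene, and 0 in both replicates' lists, while the other synMuv B and DREAM genes reach 57.1% in the series list.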

How the data were processed

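Whole worms of 1 group with 2 replicates were profiled by ChIP-seq, and 8 peak lists on ce11 were analysed. Per the labels, chromatin was sheared by sonication and precipitated with an antibody against GFP. Not given in the sources used here are the aligner, the peak caller and the peak sets compared for each IDR. The authors deposited a signal for each peak, whose scaling is not stated. They also deposited a score, which is a scaled IDR, and −log10 values of the caller's q and of the global IDR, converted here to q and IDR. The lowest score of the thresholded lists was 830. Signals were ranked only within 1 list, and where those of the replicates stand side by side no difference is read from them. Depth is unknown, so no interval is given.

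Summits were placed at the list's start plus offset, counted from 1, on Ensembl release 115 (WBcel235). Of the peaks, 0 reached past a chromosome end. Medians and shares were computed over all 19973 protein-coding genes (Python 3.11.15, pandas 2.3.3), and the assignment was tested on simulated peaks. No statistical test was made. The members and lists were chosen with earlier results of these data known. Named were all members, genes sharing their peaks or adjoining them, and up to 6 called genes by signal in each list. Genes not called were named as examples after their values were seen. A search for genes with replicate signals closest to the strongest member was planned and could not be made, since lin-13 is in neither replicate's thresholded list.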

Additional observations from a re-analysis of the deposited data

How the results depend on the processing

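The count of members with a promoter summit was 1 in the series list. Of 10 alternatives, 6 gave the same count, each time from lin-13: the conservative list, a window reaching 2000 bp upstream, peak midpoints, a q value of at most 0.05, the nearest 5' end only and the outermost 5' end only. It was 0 with a window of 500 bp upstream to 100 bp downstream, whose far edge lies short of the lin-13 summit, and 0 among peaks at or above the median signal, which the lin-13 peak lies below. With either replicate left out it ranged from 0 to 0. The count of members with a gene-body summit was 0 in the series list and in all 6 alternatives run for it. Below the threshold, the 2 ranked lists of both replicates differed: promoter candidates of lin-15B and hpl-2 were in the second alone. The lin-13 window matched 1 of the 6 motif strings with 300 bases and 1 with 200 bases. The TTTGAA matches in the windows of lin-15B and hpl-2 were 0 with 200 bases. No paired analysis was possible because the series has 1 group and no test was made. Depth is unknown, so a member without a peak cannot be told apart from one whose signal was too weak to pass.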
